A study of Mus musculus with 24 samples.

Results

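Cytochrome P450 enzymes of families 1 to 3 are haem proteins of the endoplasmic reticulum that put oxygen into drugs, toxins, steroids and fatty acids, and the liver is their main site. Their genes were taken here as the probe sets with 1 gene symbol of subfamilies Cyp1a and Cyp1b, of any Cyp2 subfamily or of Cyp3a, with the brightest probe set standing for a gene. This rule used names only and gave 54 genes of 18820, in 16 subfamilies. The larger subfamilies were Cyp2c with 13 genes on chromosome 19, Cyp2d with 10 on chromosome 15, Cyp2j with 6 on chromosome 4, Cyp3a with 6 on chromosome 5 and Cyp2b with 5 on chromosome 7. RefSeq lists 52 of the genes as protein coding and 2, Cyp2d13 and Cyp2d37-ps, as transcribed pseudogenes.

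Expression was measured on 1-colour mouse arrays in 8 groups of 3 arrays each: whole liver, or primary hepatocytes in culture, from mice of 4 genotypes. Control mice carried the floxed NEMO gene (NEMOf/f). NEMOΔhepa and KEAP1Δhepa mice lacked NEMO or KEAP1 in hepatocytes through the Alfp-Cre transgene, which is driven by albumin and alpha-fetoprotein regulatory sequences, and NEMOΔhepa/KEAP1Δhepa mice lacked both. The mice are labelled as males at 8 weeks of age. Cells of the liver outside this lineage kept both genes, and no control for the transgene or for the floxed KEAP1 gene alone was analysed here. Hepatocytes were obtained with collagenase and kept on dishes overnight in medium with serum, and it is not stated whether a mouse gave both a liver and a hepatocyte array. Each array is taken as a separate sample of its group. Because nothing says how the samples relate beyond their replicate number, p-values measure the spread between these samples.

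NEMO, encoded by Ikbkg, is the regulatory part of the IKK kinase, which switches on NF-kB. KEAP1 holds NRF2, the product of Nfe2l2 and a driver of antioxidant genes, for degradation. Most P450 genes of these families are switched on by ligand-activated receptors: the aryl hydrocarbon receptor AHR for Cyp1 genes, and the nuclear receptors CAR and PXR for many Cyp2b, Cyp2c and Cyp3a genes. Cyp2a5 is known as an NRF2 target, inflammation is known to lower many hepatic P450 genes, and growth hormone gives several mouse P450 genes a female or male pattern.

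Promoters are printed for some of the genes described below, as the 300 bases around the RefSeq start on GRCm38.p6, which held 45 of the 54 genes. In the promoters of Cyp1a1 (chr9:57697363-57697662, plus strand), Cyp1a2 (chr9:57683606-57683905, minus strand) and Cyp2a5 (chr7:26835089-26835388, plus strand), capitals mark the letters TATAAA and GCGTG, the latter the core that AHR and its partner are known to bind.
Cyp1a1: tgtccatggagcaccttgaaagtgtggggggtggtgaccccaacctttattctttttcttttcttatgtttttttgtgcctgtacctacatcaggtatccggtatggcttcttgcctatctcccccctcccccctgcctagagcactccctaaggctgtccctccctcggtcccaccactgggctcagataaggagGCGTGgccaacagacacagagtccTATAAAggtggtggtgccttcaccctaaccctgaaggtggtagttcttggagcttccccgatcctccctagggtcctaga
Cyp1a2: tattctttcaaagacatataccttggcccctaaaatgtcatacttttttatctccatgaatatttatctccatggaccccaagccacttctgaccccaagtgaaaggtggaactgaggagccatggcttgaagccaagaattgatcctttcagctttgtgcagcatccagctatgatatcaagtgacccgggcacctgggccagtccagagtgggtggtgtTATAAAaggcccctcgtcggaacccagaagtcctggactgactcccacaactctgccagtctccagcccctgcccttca
Cyp2a5: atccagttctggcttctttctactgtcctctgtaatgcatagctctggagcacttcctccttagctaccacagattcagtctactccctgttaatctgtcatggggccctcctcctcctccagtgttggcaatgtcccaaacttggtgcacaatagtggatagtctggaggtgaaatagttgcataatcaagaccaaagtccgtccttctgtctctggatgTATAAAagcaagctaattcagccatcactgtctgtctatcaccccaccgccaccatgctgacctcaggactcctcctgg

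Searched on both strands, GCGTG was in 32.4% of 32851 promoters and in 9 of the 45, and TATAAA in 13.6% and in 23 of the 45. TATAAA began 29 or 30 bases before the start in all 3 printed promoters, and GCGTG began 54 bases before that of Cyp1a1 (position -54). The NRF2 core TGACNNNGC was in 12.4% of all promoters and in Cyp2c65, Cyp2c66 and Cyp2j6 among the 45, and the STAT5 core TTCNNNGAA in 8.30% of all and in Cyp2j11 and Cyp2j12. A match describes letters in this window and is no evidence of binding.

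The neighbours Cyp2b9 (chr7:26173159-26173458, plus strand) and Cyp2b13 (chr7:26061245-26061544, plus strand) are printed because they are near-identical there, while their probe sets varied differently across the liver arrays. They were identical at 298 of 300 positions. Capitals mark the differing bases, T48C and C104T from Cyp2b9 to Cyp2b13, with positions counted from 1 at the 5′ end.
Cyp2b9: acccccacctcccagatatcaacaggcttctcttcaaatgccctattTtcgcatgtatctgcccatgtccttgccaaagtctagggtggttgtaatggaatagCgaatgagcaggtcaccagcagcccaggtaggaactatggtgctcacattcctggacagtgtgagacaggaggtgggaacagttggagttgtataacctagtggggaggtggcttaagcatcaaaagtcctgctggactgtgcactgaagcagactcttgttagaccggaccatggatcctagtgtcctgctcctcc
Cyp2b13: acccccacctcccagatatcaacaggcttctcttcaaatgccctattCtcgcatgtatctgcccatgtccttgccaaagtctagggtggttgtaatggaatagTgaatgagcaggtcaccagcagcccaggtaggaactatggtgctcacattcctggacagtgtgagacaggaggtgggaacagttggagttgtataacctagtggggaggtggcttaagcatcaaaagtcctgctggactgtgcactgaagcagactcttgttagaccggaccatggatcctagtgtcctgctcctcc

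Of the 24 arrays, 4 stood apart from their group, so most counts are given with all arrays and without these 4, and so are the values of many genes whose call differed between the fits. Test values are from all arrays unless the sentence or its paragraph says otherwise. Liver control 3 had the NRF2 target Nqo1 at 9.17 on the log2 scale, against 4.71 and 5.37 on the other liver controls, and Ikbkg at 6.40 against 6.86 and 6.81. On liver double knockout 3 there was expression of Adipoq, a fat cell gene, at 7.17 and of Krt7, a bile duct gene, at 7.81. Hepatocyte control 1 and hepatocyte double knockout 3, labelled as male, had the female transcript Xist at 9.65 and 9.76, with the Y-chromosome gene Eif2s3y at 2.51 and 2.71. Ikbkg lay between 6.01 and 6.60 on the NEMO-null arrays, and of the NEMO-intact arrays only liver control 3 was in that range, the others being at 6.63 or more. Keap1 lay between 5.38 and 5.94 on the KEAP1-null arrays, which overlapped the KEAP1-intact arrays, at 5.81 or more. Defining hepatocyte genes were bright everywhere, with a mean over 9 genes between 11.3 and 11.7 on every array. In control hepatocytes the mean of 7 endothelial markers was 5.60 to 6.52 and that of 9 macrophage markers 5.68 to 6.61. The knockout hepatocytes lay above this range for endothelium, at 7.52 to 7.86 without NEMO, 7.15 to 7.67 without KEAP1 and 7.86 to 8.03 without both. For macrophages they lay above it without NEMO (7.59 to 8.02) and without both (8.02 to 8.46), and overlapped it without KEAP1 (6.50 to 7.25). The mean of 9 stellate cell markers was 4.65 to 5.17 in control hepatocytes, 6.42 to 6.69 without NEMO, 5.41 to 5.505 without KEAP1 and 6.11 to 6.21 without both. All 3 means were thus higher in double than in KEAP1 knockout hepatocytes. In liver the stellate mean was 6.30 to 7.26 in controls, 7.71 to 8.05 without NEMO, 6.81 to 7.16 without KEAP1 and 7.14 to 7.96 without both, and the macrophage mean was 7.21 to 8.22, 7.96 to 8.16, 7.45 to 8.03 and 8.25 to 8.35 in the same order, with liver control 3 at the top of its group's macrophage range. These markers of other cells moved with the comparisons below in both tissues, and their part in the results was not tested. Fewer cells of a type and less RNA per cell cannot be told apart in such samples.

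Levels spanned the range of the array. Of the 54 genes 13 were above 10 on every array, among them Cyp2e1, Cyp2f2, Cyp2d26, Cyp1a2, Cyp2a12, Cyp2c29, Cyp2c67, Cyp3a11 and Cyp3a25. Another 12 were below 4 on every array, between 1.24 and 3.84, including all of Cyp2g1, Cyp2t4 and Cyp2w1 and the duplicated genes Cyp2j11, Cyp2j12 and Cyp2j13. Changes that start from such low levels are understated. Over the 20 arrays not in doubt 27 genes varied by less than 1 log2 unit and 9 by more than 2, namely Cyp1a1, Cyp1b1, Cyp2a5, Cyp2a22, Cyp2b9, Cyp2b10, Cyp2c38, Cyp2c55 and Cyp2d13. The ethanol-metabolising Cyp2e1 was at 12.40 to 12.83 and Cyp2f2, which activates lung and liver toxins such as naphthalene, at 12.28 to 12.75 on all 24 arrays, with neither called in any comparison.

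**Figure D1:**
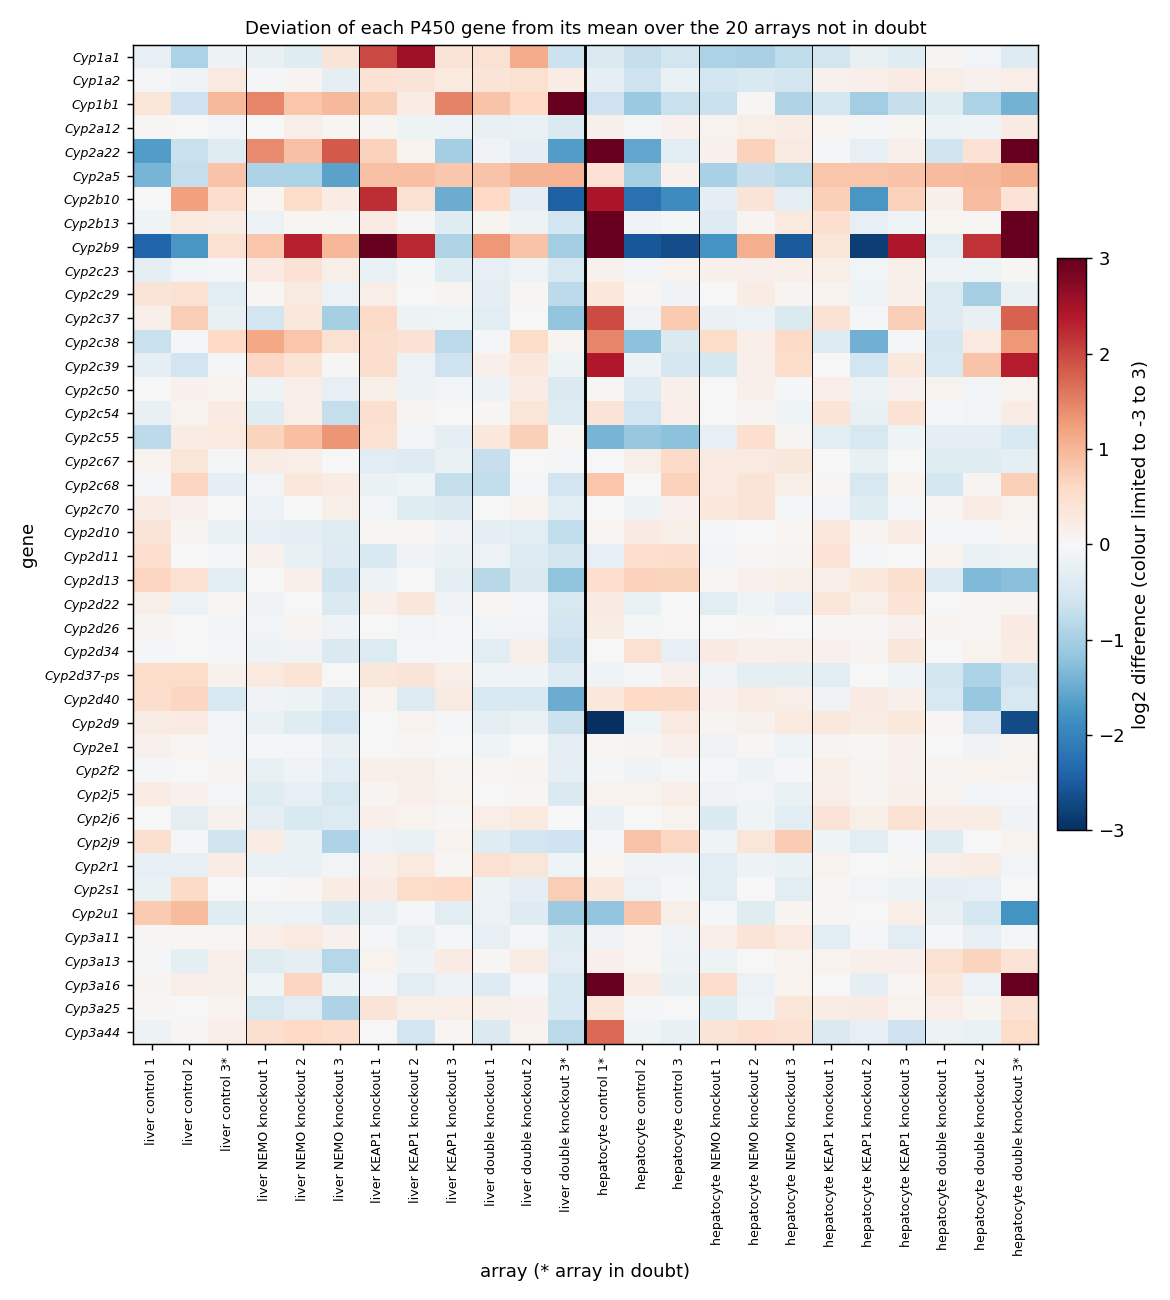
Log2 difference of each of 42 P450 genes (rows, those above 4 on some array) from its own mean over the 20 arrays not in doubt, for 24 arrays (columns, liver left and hepatocytes right; a star marks an array in doubt; colours stop at -3 and 3). Most rows are pale. Strong colours lie mainly in Cyp1a1, Cyp2a22, Cyp2a5, Cyp2b9 and Cyp2b10, on the starred hepatocyte arrays, and in Cyp1b1 on liver double knockout 3.

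In liver few P450 genes passed the test with all arrays, and more did without the 4 arrays. A gene was called at a Benjamini-Hochberg adjusted p under 0.05 over all 18820 genes in limma. After NEMO loss 1 of 54 rose, Cyp2a22, and 0 fell (1.01% of all genes rose and 0.319% fell), and without the 4 arrays 5 rose and 7 fell (8.48% and 3.55% of all genes). KEAP1 loss gave 0 calls (0.0% of all genes), and 5 higher and 2 lower without the 4 arrays (3.71% and 1.55%). With all arrays 7 of the 54 and 1447 of all genes had an unadjusted limma p under 0.05. The double knockout against control gave 0 (0.00531% of all genes, with 16 of the 54 at an unadjusted limma p under 0.05), and 3 higher and 7 lower without them (6.37% and 2.84%). With the replicate number as a block this comparison gave 5 lower genes (4.25% of all genes called), Cyp2d9, Cyp2d10, Cyp2d13, Cyp2d37-ps and Cyp2u1. Compared with the NEMO knockout the double knockout had 2 higher and 1 lower (0.414% and 0.632%), or 6 and 1 without the 4 arrays (1.92% and 1.54%). Compared with the KEAP1 knockout it had 0 in either fit (0.0% and 0.0531% of all genes). At an unadjusted limma p under 0.05 were 8 and 9 of the 54, beside 1429 and 1383 of all genes. Leaving out liver control 3 alone moved the counts against control to 5 for NEMO loss, 2 for KEAP1 loss and 9 for the double knockout. In those fits 1409, 497 and 2207 of all 18820 genes were called. In a fit on the 2 groups alone the calls of Cyp2a22 with NEMO loss and of Cyp2c23 and Cyp2j6 between double and NEMO knockout were lost, the latter pair also with aligned medians.

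In hepatocytes NEMO loss raised Cyp2c55 and Cyp3a11 and lowered Cyp2j5 (2 of 54 higher and 1 lower, with 4.61% and 2.05% of all genes), and without the 4 arrays 3 rose, Cyp2a22, Cyp2c55 and Cyp3a44, and 0 fell (4.14% and 1.45%). KEAP1 loss raised Cyp1a2 and Cyp2c55 and lowered 0 (1.45% and 0.425% of all genes), and 3 rose and 1 fell without the 4 arrays (1.34% and 0.473%). The double knockout had 4 higher and 5 lower than control (6.73% and 2.99%), or 6 and 7 without the 4 arrays (6.44% and 2.79%). It had 4 higher and 4 lower than the NEMO knockout (2.16% and 1.16%), or 6 and 7 without the 4 arrays (2.39% and 1.42%). Set against the KEAP1 knockout it had 0 higher and 3 lower (2.16% and 0.59%), or 1 higher and 4 lower (2.83% and 0.946%). Over the 18820 genes the array medians of the NEMO knockout hepatocytes lay 0.17 above those of the controls, and those of the double knockouts 0.19 above. With medians aligned the calls became 1 higher and 11 lower after NEMO loss (16.5% of all genes called) and 4 higher and 12 lower in the double knockout (22.1%), so these splits hang on the scaling. Of the 31 calls made with all arrays in any comparison, 15 held when any 1 array was left out, and all 15 were in hepatocytes. Fits on the 2 groups alone lost the calls of Cyp2a5 and Cyp2c29 in the double knockout against control, of Cyp1a2 with KEAP1 loss, of Cyp2j5 and Cyp3a11 with NEMO loss, and of Cyp2d37-ps and Cyp2d40 against the KEAP1 knockout. Within the tissues 15 of 54 genes were called in at least 1 comparison, or 29 without the 4 arrays. The matching share of all genes was not counted, so these totals do not show a response particular to P450 genes.

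Cyp2a5, the coumarin hydroxylase, was bright on every array without KEAP1. In liver it was at 10.14, 10.83 and 12.41 on the control arrays and at 10.61, 10.60 and 9.95 without NEMO. The livers without KEAP1 had 12.41, 12.45 and 12.35 and those without both had 12.41, 12.58 and 12.58. Liver control 3 was therefore as high as the KEAP1-null livers, and without it the groups with and without KEAP1 did not overlap. The KEAP1 knockout was above control by 1.27 ± 0.41 (SE, n = 3 per group; adjusted p = 0.617 in limma) with all arrays. Without the 4 arrays it rose by 1.92 ± 0.21 (adjusted p = 0.000326 in limma), a 3.77-fold difference. That array had been set aside partly for Nqo1, a target of the same factor, so the second value is no independent check of the first. The double knockout exceeded the NEMO knockout, which does not involve that array, by 2.14 ± 0.41 (adjusted p = 0.0331 in limma), a call lost when any 1 of the 6 arrays was left out and at 2.11 ± 0.21 (adjusted p = 0.000134) without the 4 arrays.

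In hepatocytes Cyp2a5 was at 11.99, 10.54 and 11.67 on control arrays and at 10.57, 10.86 and 10.75 without NEMO. It was at 12.39, 12.39 and 12.40 without KEAP1 and at 12.51, 12.52 and 12.62 without both, and the KEAP1-null arrays were above all others. It rose by 1.15 ± 0.25 in the double knockout over control (adjusted p = 0.0107 in limma) and over the NEMO knockout by 1.83 ± 0.25 (adjusted p = 0.00156), and both calls held without any 1 array. KEAP1 loss alone gave 0.99 ± 0.25 (adjusted p = 0.0696), and 1.29 ± 0.22 (adjusted p = 0.0126) without the 4 arrays. A second probe set, listed for Cyp2a5 and its near-identical neighbour Cyp2a4, ran from 9.52 to 10.54 in the NEMO knockouts of both tissues and from 12.58 to 12.84 in all KEAP1-null arrays. On control arrays it was at 9.75, 10.43 and 12.66 in liver and at 12.24, 9.88 and 11.65 in hepatocytes. Liver control 3 thus lay in the KEAP1-null range here too. Cross-reading between the pair remains possible.

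Cyp1a2, an AHR target that oxidises caffeine and aromatic amines, moved the same way by less. Hepatocytes had 11.82, 11.46 and 11.89 in controls, 11.52, 11.64 and 11.54 without NEMO, 12.21, 12.24 and 12.33 without KEAP1, and 12.30, 12.23 and 12.29 without both. No KEAP1-null array overlapped a KEAP1-intact one there. Cyp1a2 rose by 0.54 ± 0.10 with KEAP1 loss (adjusted p = 0.0114 in limma; 0.0513 without KEAP1 knockout 3), by 0.55 ± 0.10 between double knockout and control (adjusted p = 0.00216) and by 0.71 ± 0.10 between double and NEMO knockout (adjusted p = 0.00123). In liver the controls had 12.05, 11.97 and 12.35 and the KEAP1 knockouts 12.53, 12.47 and 12.38. The difference of 0.34 ± 0.12 was not called (adjusted p = 0.624 in limma), and without the 4 arrays it was 0.45 ± 0.11 (adjusted p = 0.0301).

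Its neighbour Cyp1a1, the AHR target with the widest induction by dioxin-like compounds, changed from a low level. In liver it was at 3.93, 3.24 and 4.02 in controls and at 3.96, 3.83 and 4.57 without NEMO. The livers without KEAP1 had 6.17, 6.72 and 4.57 and those without both had 4.65, 5.30 and 3.54. All 3 KEAP1 knockout livers were above every control, 2 of them by more than 2 log2 units, and of the double knockouts only replicate 3, an array in doubt, was in the range of the controls. The change with KEAP1 loss was 2.09 ± 0.52 (adjusted p = 0.617 in limma), and 2.24 ± 0.50 (adjusted p = 0.0228) without the 4 arrays. In hepatocytes Cyp1a1 stayed between 3.21 and 4.26 on all arrays. There it rose by 0.77 ± 0.16 in the double knockout against the NEMO knockout (adjusted p = 0.0172 in limma), which was lost without NEMO knockout 1 or 2 or double knockout 1 or 2 (adjusted p up to 0.0719). Cyp1b1, an AHR target made mostly outside hepatocytes, was at 3.79, 2.82 and 4.42 in control livers and 4.90, 4.26 and 4.39 without NEMO, and reached 6.74 on liver double knockout 3. Its change with NEMO loss in liver was 0.84 ± 0.62 (adjusted p = 0.50 in limma), and 1.21 ± 0.36 (adjusted p = 0.0474) without the 4 arrays, and 6 of 9 stellate cell markers were higher there too, whose part in the result was not tested.

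**Figure D2:**
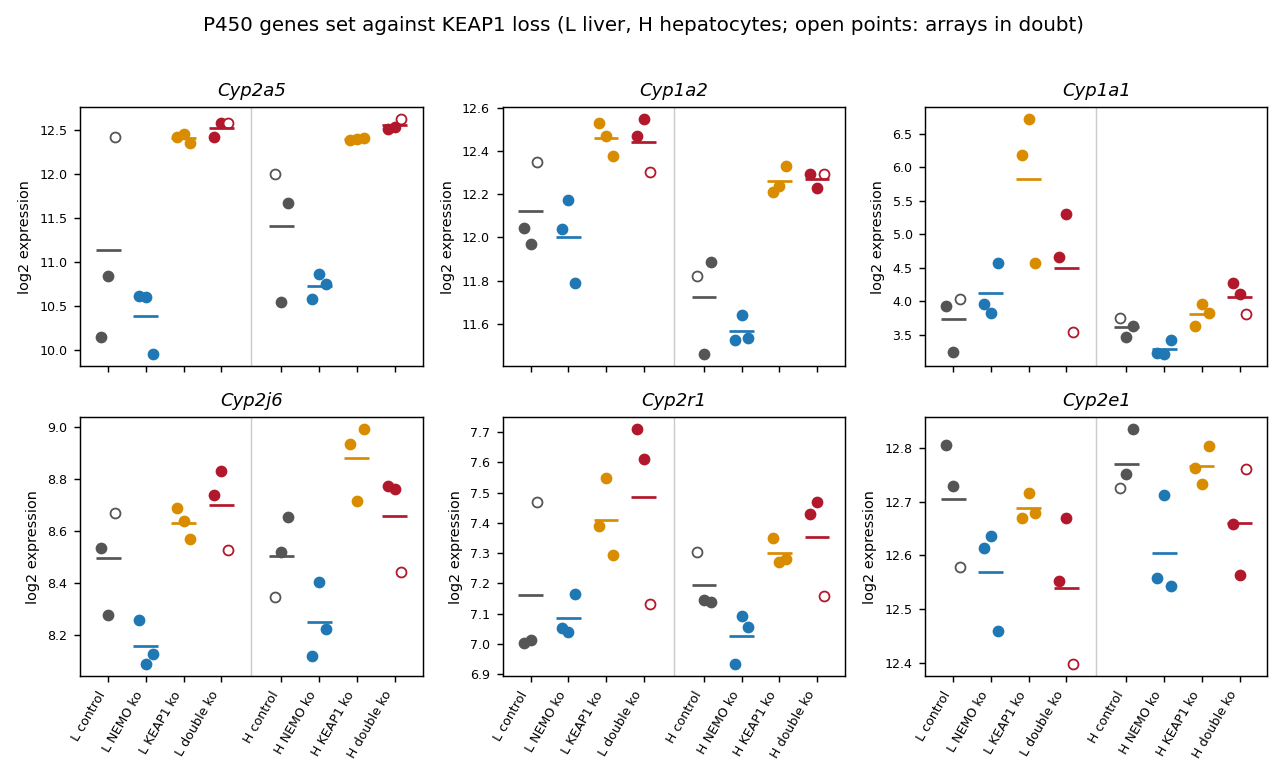
Log2 expression of 6 P450 genes on each array, by group (L liver, H hepatocytes; ko knockout; bars are means of 3 arrays, open points the arrays in doubt; each panel has its own axis). Cyp2a5 sat at 12.35 to 12.62 on every KEAP1-null array, while Cyp2e1 stayed between 12.40 and 12.83 in all groups.

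Leaving out the 4 arrays, the KEAP1-null arrays were above the KEAP1-intact ones in both tissues, with no overlap, for 5 of 54 genes (1.41% of all genes), namely Cyp1a2, Cyp2a5, Cyp2f2, Cyp2j6 and Cyp2r1. They were below for 1, Cyp2c67 (0.537% of all genes). Liver control 3 had been set aside partly for its high Nqo1, an NRF2 target, so this split is not independent of that choice. With all arrays 0 separated upwards and 0 downwards in both tissues (0.0744% and 0.0797% of all genes), while in hepatocytes Cyp1a2, Cyp2a5 and Cyp2f2 separated upwards and 0 downwards (1.6% and 0.765%). In liver with all arrays 0 separated upwards and 1, Cyp3a11, downwards (0.436% and 0.383%). Cyp2r1, a vitamin D 25-hydroxylase, was at 7.0015, 7.01 and 7.47 in control livers, 7.05, 7.04 and 7.17 without NEMO, 7.39, 7.55 and 7.29 without KEAP1 and 7.71, 7.61 and 7.13 without both. Both arrays that break this order were in doubt. Cyp2r1 was higher in the double knockout liver by 0.65 ± 0.11 (adjusted p = 0.0041 in limma) without the 4 arrays, against 0.32 ± 0.16 (adjusted p = 0.274) with them. Cyp2j6, an epoxygenase of fatty acids, was at 8.26, 8.09 and 8.13 in NEMO knockout livers and at 8.74, 8.83 and 8.53 in double knockout livers, a rise of 0.54 ± 0.11 (adjusted p = 0.0441 in limma) that was lost without any 1 of the 6 arrays other than double knockout 3.

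Cyp2c genes make epoxides from fatty acids and metabolise many drugs, and Cyp2c55 rose in hepatocytes of every knockout. In hepatocytes it was at 4.94, 5.19 and 5.10 in controls, 6.09, 6.84 and 6.41 without NEMO, 6.01, 5.87 and 6.19 without KEAP1 and 6.06, 6.08 and 5.87 without both. Every knockout array lay above every control array. Cyp2c55 rose by 1.37 ± 0.17 with NEMO loss (adjusted p = 0.000256 in limma), a 2.59-fold difference, and by 0.93 ± 0.17 in the double knockout (adjusted p = 0.00301). With KEAP1 loss it rose by 0.95 ± 0.17 (adjusted p = 0.0114), a call lost without KEAP1 knockout 1 or 3 (adjusted p = 0.0566 and 0.0521). The double and NEMO knockouts differed by -0.45 ± 0.17 (adjusted p = 0.199). In liver Cyp2c55 was at 5.55, 6.57 and 6.64 in controls and 7.01, 7.24 and 7.67 without NEMO, a difference of 1.05 ± 0.30 (adjusted p = 0.0972 in limma), and 1.24 ± 0.30 (adjusted p = 0.0176) without the 4 arrays.

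Cyp2c67 and Cyp2c29 went down in double knockout hepatocytes. Cyp2c67 was at 11.08, 11.24 and 11.65 in controls, 11.35, 11.33 and 11.41 without NEMO, 11.08, 10.84 and 11.06 without KEAP1 and 10.71, 10.71 and 10.77 without both. The double knockout arrays were below all others. Cyp2c67 fell by 0.59 ± 0.12 relative to control (adjusted p = 0.00578 in limma) and by 0.63 ± 0.12 relative to NEMO loss alone (adjusted p = 0.0109), both held without any 1 array. Cyp2c29, a CAR target, was at 11.75, 11.49 and 11.32 in controls and 11.03, 10.43 and 11.22 in double knockouts. It fell by 0.63 ± 0.17 (adjusted p = 0.0321), which was lost without control 1 or 2 or double knockout 2 (adjusted p = 0.108, 0.0699 and 0.108). Cyp2c50 was steadier and lay between 10.42 and 11.08 on all arrays. Cyp2c23, an arachidonic acid epoxygenase, was at 11.75, 11.94 and 11.69 in NEMO knockout livers and 11.26, 11.37 and 11.02 in double knockout livers. The double knockout was lower, with a log2 change of -0.58 ± 0.12 (adjusted p = 0.0413 in limma) that was lost without any 1 of the 6 arrays.

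Of the 6 Cyp3a genes, PXR targets that metabolise a wide range of drugs and steroids, 3 adult ones moved by small amounts. Cyp3a11 in hepatocytes was at 11.68, 11.83 and 11.68 in controls and at 11.98, 12.17 and 12.07 without NEMO, with no overlap. It rose by 0.35 ± 0.09 (adjusted p = 0.0378 in limma), a call lost with aligned medians, without the 4 arrays (adjusted p = 0.192 and 0.0995), and without any 1 of the 6 arrays other than control 2. Its change from the NEMO to the double knockout was -0.42 ± 0.09 (adjusted p = 0.0247), which was lost without NEMO knockout 2 or 3 or double knockout 2. Cyp3a13 in hepatocytes was at 9.68, 9.58 and 9.38 in controls, 9.38, 9.55 and 9.65 without NEMO, 9.63, 9.69 and 9.68 without KEAP1 and 10.00, 10.21 and 9.95 without both. The double knockout stood above all other groups. Cyp3a13 rose by 0.50 ± 0.10 relative to control (adjusted p = 0.00534 in limma), and by 0.53 ± 0.10 relative to NEMO loss alone (adjusted p = 0.0112), the latter lost without NEMO knockout 1 or double knockout 2. Cyp3a25 in liver was at 11.27, 11.26 and 11.35 in controls and 10.78, 10.91 and 10.32 without NEMO. Its change was -0.63 ± 0.17 (adjusted p = 0.0926 in limma) with all arrays and -0.60 ± 0.14 (adjusted p = 0.0181) without the 4 arrays. In hepatocytes it was -0.14 ± 0.16 (adjusted p = 0.693) and -0.02 ± 0.16 (adjusted p = 0.978).

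**Figure D3:**
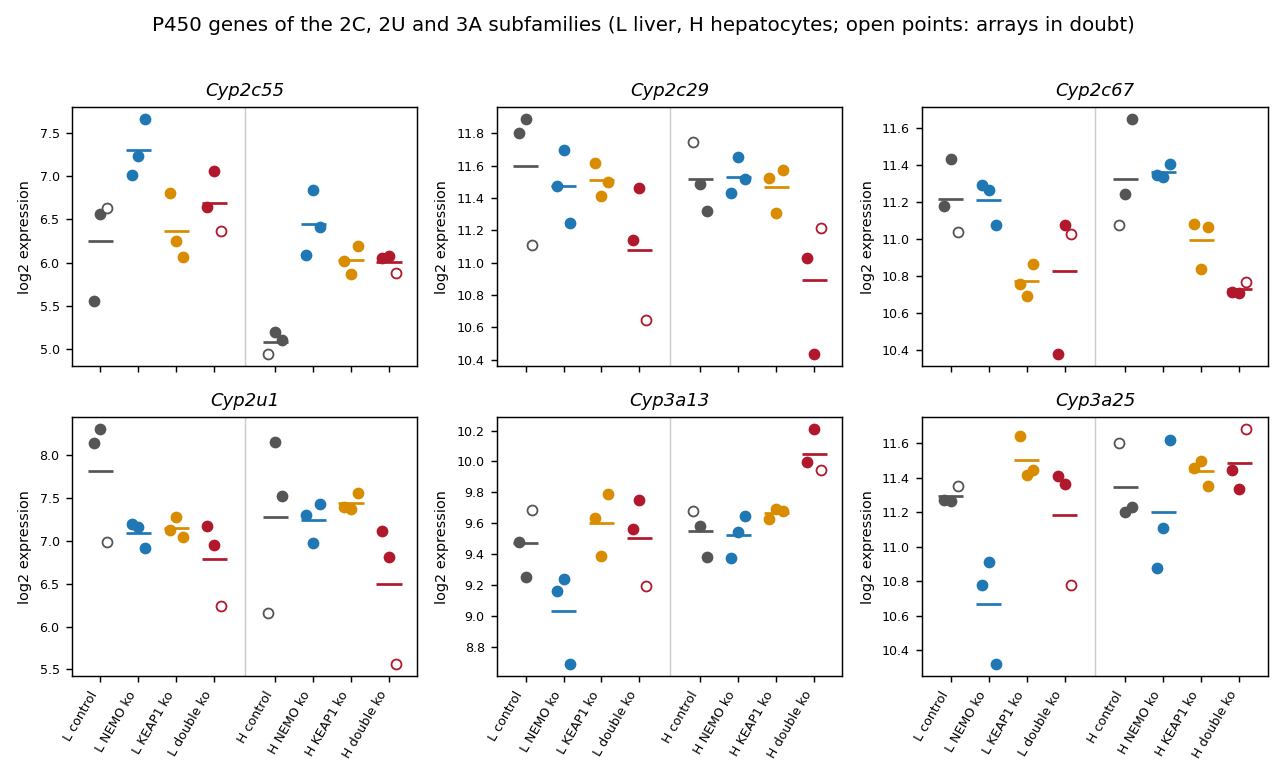
Log2 expression of 3 Cyp2c genes, Cyp2u1 and 2 Cyp3a genes on each array, by group (L liver, H hepatocytes; ko knockout; bars are means of 3 arrays, open points the arrays in doubt; each panel has its own axis). Cyp2c55 in hepatocytes lay at 4.94 to 5.19 in controls and at 5.87 to 6.84 in the knockouts.

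Genes of the Cyp2d cluster, relatives of the human enzyme that oxidises many amine drugs, included several that were lower in double knockouts. RefSeq places the 10 genes on chromosome 15 from 82370527 to 82794452 (GRCm38.p6), in the order Cyp2d22, Cyp2d11, Cyp2d10, Cyp2d9, Cyp2d12, Cyp2d34, Cyp2d13, Cyp2d37-ps, Cyp2d40 and Cyp2d26. The neighbours Cyp2d13, Cyp2d37-ps and Cyp2d40 changed together in hepatocytes. Cyp2d40 was at 7.94, 8.21 and 8.19 in controls, 7.75, 7.84 and 7.82 without NEMO, 7.52, 7.87 and 7.77 without KEAP1 and 7.13, 6.49 and 7.14 without both. Its double knockout arrays lay below all others. Cyp2d40 fell by 1.19 ± 0.16 relative to control (adjusted p = 0.000325 in limma), and by 0.88 ± 0.16 relative to the NEMO knockout (adjusted p = 0.00864), and both held without any 1 array. Relative to the KEAP1 knockout it fell by 0.80 ± 0.16 (adjusted p = 0.0175), which was lost without KEAP1 knockout 2 or 3 or double knockout 2.

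The pseudogene Cyp2d13 was at 10.01, 10.20 and 10.18 in control hepatocytes, 9.57, 9.64 and 9.67 without NEMO, 9.71, 9.83 and 9.99 without KEAP1 and 9.11, 8.18 and 8.24 without both. The double knockouts did not overlap any other group. Cyp2d13 fell by 1.62 ± 0.19 relative to control (adjusted p = 0.000115 in limma), by 1.12 ± 0.19 relative to NEMO loss alone (adjusted p = 0.00548) and by 1.34 ± 0.19 relative to KEAP1 loss alone (adjusted p = 0.00315), and all 3 held without any 1 array. Cyp2d37-ps fell by 0.70 ± 0.12 relative to control (adjusted p = 0.002), held likewise, and by 0.55 ± 0.12 relative to KEAP1 loss alone (adjusted p = 0.0296), which was lost without KEAP1 knockout 2 or 3 or double knockout 2. In liver Cyp2d13 was at 10.15, 9.97 and 9.16 in controls and 8.67, 9.08 and 8.30 in double knockouts. Its change there was -1.07 ± 0.27 (adjusted p = 0.134), and -1.18 ± 0.21 (adjusted p = 0.00497) without the 4 arrays. Cyp2d26 at the edge of the cluster lay between 11.57 and 12.40 on all arrays and was not called in any comparison. Copies in this cluster are similar, so a probe set named for a Cyp2d gene may read its neighbours.

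In liver with NEMO loss all 10 Cyp2d genes had values below 0, as had 41 of the 54 P450 genes and 56.1% of all genes. The Cyp2d median was -0.26 with 0 called in limma, and without the 4 arrays the median was -0.36 and 4 of 10 fell (3.55% of all genes fell in that fit). Over all genes the median was -0.04 and -0.05. The stellate and macrophage markers given above were higher in the NEMO knockout than on liver controls 1 and 2 in the same comparison. Those that fell were Cyp2d9, Cyp2d10, Cyp2d13 and Cyp2d40. Cyp2d10 was at 9.84, 9.53 and 9.25 in controls, 9.21, 9.19 and 9.09 without NEMO and 9.20, 9.15 and 8.71 without both, while the KEAP1 knockouts had 9.50, 9.52 and 9.35. On the 20 remaining arrays it was the 1 of 54 genes whose NEMO-null arrays lay below the NEMO-intact ones in both tissues (0.335% of all genes), and 0 lay above (1.3%), and its change with NEMO loss in liver was -0.52 ± 0.10 (adjusted p = 0.00667 in limma), against -0.37 ± 0.15 (adjusted p = 0.227) with all arrays. Over all arrays the NEMO-null arrays of Cyp2d10 lay below the NEMO-intact ones in liver, but overlapped them in hepatocytes.

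**Figure D4:**
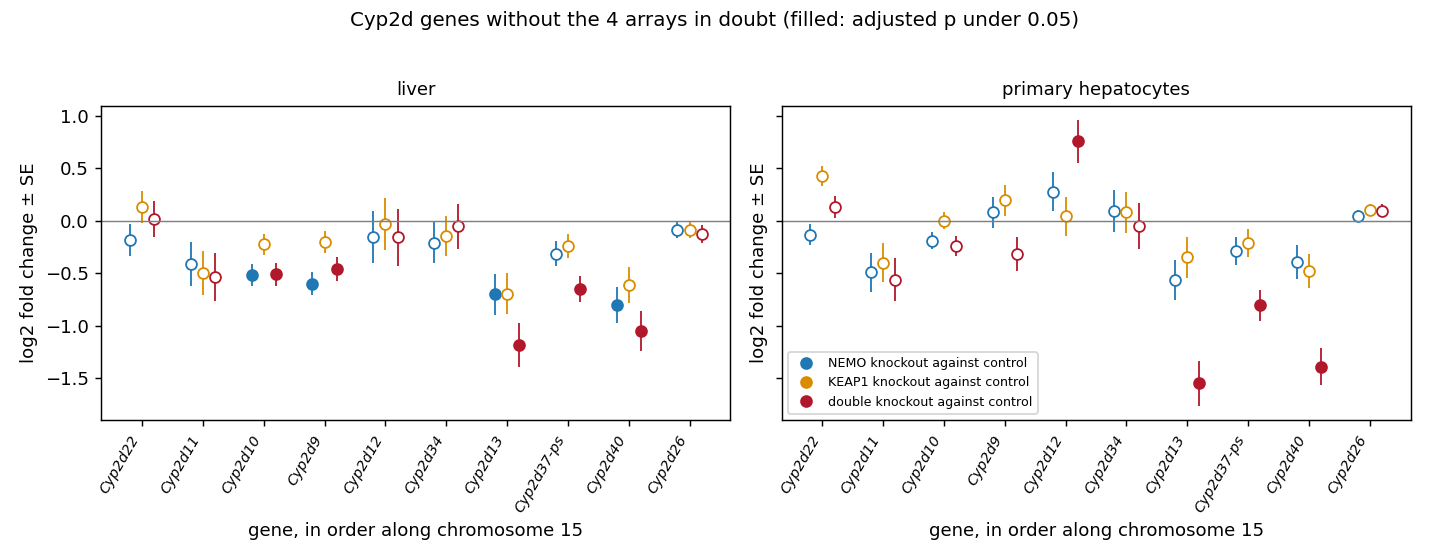
Log2 fold change ± SE of the 10 Cyp2d genes against control, in their order on chromosome 15, for liver (left) and hepatocytes (right), without the 4 arrays in doubt (2 control, 3 NEMO knockout, 3 KEAP1 knockout and 2 double knockout arrays per tissue; filled points have a limma adjusted p under 0.05). Cyp2d13 and Cyp2d40 lie low for the double knockout in both tissues, at -1.18 and -1.05 in liver and -1.55 and -1.39 in hepatocytes.

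Genes with a known sex pattern marked the arrays with high Xist. Cyp2b13, a female-predominant gene, was between 1.89 and 2.95 on 22 arrays and at 9.33 on hepatocyte control 1 and 8.78 on hepatocyte double knockout 3. Cyp3a16, likewise female-predominant, was at or below 3.03 on 22 arrays and at 9.62 and 6.63 on these. The male-predominant steroid hydroxylase Cyp2d9 went the other way, at 6.34 and 7.13 on these arrays and 9.32 to 10.13 on the other hepatocyte arrays. Cyp3a44, Cyp2a22, Cyp2c37 and Cyp2c39 were also higher there than on any other hepatocyte array. Cyp2b9 was at 12.03 and 11.73 there and at most 8.04 on the other hepatocyte arrays. The change of Cyp2a22 with NEMO loss was -0.53 ± 1.28 (adjusted p = 0.874 in limma) with all arrays and 1.31 ± 0.35 (adjusted p = 0.0479) without the 4 arrays.

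In liver, where Xist was low throughout, Cyp2b9 also varied. It was at 3.23, 3.87 and 6.07 in control livers, 6.44, 7.96 and 6.61 without NEMO, 8.67, 7.89 and 4.72 without KEAP1 and 6.93, 6.47 and 4.59 without both. Every NEMO knockout liver was above every control. The KEAP1-null groups overlapped the controls through liver control 3 alone, and all their arrays were above the other 2 controls. The change was 2.61 ± 0.99 with NEMO loss (adjusted p = 0.197 in limma) and 2.70 ± 0.99 with KEAP1 loss (adjusted p = 0.624). Without the 4 arrays it rose by 3.45 ± 0.87 (adjusted p = 0.0226) and 3.54 ± 0.87 (adjusted p = 0.0371). The probe set of Cyp2b13, whose promoter differs at 2 of 300 positions, ran from 1.89 to 2.75 over all liver arrays. In hepatocytes Cyp2b9 spread from 2.80 to 8.04 within the KEAP1 knockout alone and was not called.

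Cyp2a22 was the 1 gene called with all arrays for NEMO loss in liver. It was at 3.27, 4.26 and 4.58 in controls, 6.36, 5.83 and 6.78 without NEMO, 5.62, 5.05 and 3.92 without KEAP1 and 4.83, 4.65 and 3.26 without both. The NEMO knockout livers were above all others. Cyp2a22 rose by 2.28 ± 0.50 (adjusted p = 0.0487 in limma), or 2.56 ± 0.43 (adjusted p = 0.00286) without the 4 arrays, and the call was lost without any 1 of the 6 arrays other than liver control 3. The phenobarbital-responsive Cyp2b10, the usual readout of CAR, was at 5.85, 7.06 and 6.37 in control livers and 8.06, 6.30 and 4.36 in KEAP1 knockout livers, which overlapped. In hepatocytes it was at 8.28, 3.61 and 3.97 in controls and 5.98, 6.77 and 6.25 in double knockouts, a difference of 1.05 ± 0.97 (adjusted p = 0.592 in limma) and, without the 4 arrays, of 2.59 ± 0.63 (adjusted p = 0.0222).

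**Figure D5:**
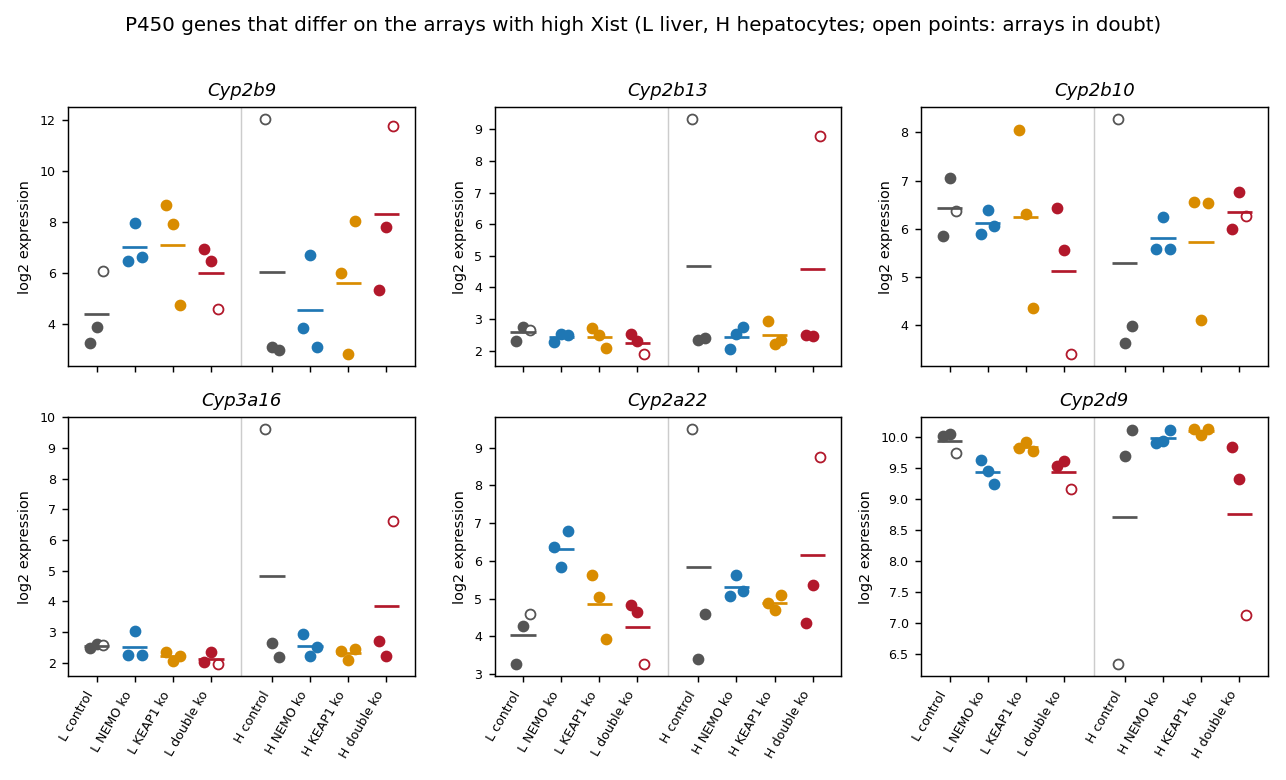
Log2 expression of 6 P450 genes on each array, by group (L liver, H hepatocytes; ko knockout; bars are means of 3 arrays, open points the arrays in doubt; each panel has its own axis). The open points of hepatocyte control 1 and double knockout 3 stand at 9.33 and 8.78 for Cyp2b13, against at most 2.95 elsewhere.

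Cyp2u1, a fatty acid hydroxylase, separated 2 control livers from everything else in that tissue. It was at 8.13, 8.30 and 6.99 in controls, 7.19, 7.16 and 6.91 without NEMO, 7.12, 7.28 and 7.04 without KEAP1 and 7.17, 6.95 and 6.24 without both. Liver control 3 lay among the knockouts. With all arrays the changes were -0.72 ± 0.30 with NEMO loss (adjusted p = 0.241 in limma), -0.66 ± 0.30 with KEAP1 loss (adjusted p = 0.648) and -1.02 ± 0.30 in the double knockout (adjusted p = 0.138). With the 4 arrays left out it fell with NEMO loss by 1.13 ± 0.12 (adjusted p = 0.000295), a 2.19-fold difference. In that fit its change was -1.07 ± 0.12 with KEAP1 loss (adjusted p = 0.000466) and -1.16 ± 0.13 in the double knockout (adjusted p = 0.000411). These changes all rest on the same 2 control arrays. Liver control 3 had been set aside for its Nqo1 and Ikbkg values, so this fit is no independent check of the fit with all arrays. In hepatocytes Cyp2u1 was called in a comparison without the 4 arrays, and not with all arrays. Cyp2j5, a cardiac and hepatic epoxygenase, was at 11.31, 11.32 and 11.43 in control hepatocytes and 11.12, 11.14 and 11.01 without NEMO. It fell by 0.26 ± 0.07 (adjusted p = 0.0415 in limma), a call lost without any 1 of the 6 arrays and without the 4 (adjusted p = 0.0582). In liver its change was -0.53 ± 0.08 (adjusted p = 0.00192) without the 4 arrays and -0.47 ± 0.12 (adjusted p = 0.0852) with them.

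Genes that act on these enzymes or with them were taken from lists, whose counts stand beside 6.73% of all genes higher and 2.99% lower in double knockout hepatocytes, or 6.44% and 2.79% without the 4 arrays. Of 27 measured regulators 7 fell and 0 rose in double knockout hepatocytes: Cebpa, Foxa3, Nr1h4, Nr3c1, Onecut1, Ppara and Rxra. The hepatocyte factor Cebpa fell by 0.90 ± 0.12 (adjusted p = 0.000301 in limma) and the CAR and PXR partner Rxra by 0.34 ± 0.09 (adjusted p = 0.0308), and without the 4 arrays 6 of these 7 fell, all but Nr3c1. NEMO loss in hepatocytes lowered 3, Cebpa, Nr3c1 and Rxra, and raised Nfe2l2 by 0.73 ± 0.15 (adjusted p = 0.00853), beside 4.61% of all genes higher and 2.05% lower, and KEAP1 loss gave 0 in either fit by limma. In liver with all arrays Nfe2l2 rose by 1.10 ± 0.11 with NEMO loss (adjusted p = 0.000949) and no other regulator was called against control. The receptor gene Ahr was at 7.39, 7.52 and 8.26 in control livers and at 8.12, 8.16 and 8.32 without KEAP1, with a change of 0.48 ± 0.20 (adjusted p = 0.643 in limma), and of 0.75 ± 0.14 (adjusted p = 0.0119) without the 4 arrays, and liver control 3 lay among the knockouts. In that fit NEMO loss in liver raised 2 regulators and lowered 6, KEAP1 loss 1 and 5, and the double knockout 1 and 5, with Cebpa and Nr1h4 lower in all 3. The shares of all genes higher and lower in that fit were 8.48% and 3.55%, 3.71% and 1.55%, and 6.37% and 2.84%.

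Among 15 genes of electron supply and haem, 4 rose in double knockout hepatocytes and 0 fell: Blvrb by 1.64 ± 0.13 (adjusted p = 8.13e-06 in limma), the haem oxygenase Hmox1 by 1.76 ± 0.32 (adjusted p = 0.00342), Pgrmc1, a haem-binding partner of P450 enzymes, by 0.40 ± 0.08 (adjusted p = 0.00487) and Fech, which inserts iron into haem, by 0.37 ± 0.10 (adjusted p = 0.0394). The macrophage markers given above were also higher in double knockout than in control hepatocytes, and their part in the Hmox1 change was not tested. Of 14 other targets of AHR, CAR and PXR, 5 rose there and 0 fell: Nqo1, Abcc2, Abcc3, Aldh1a7 and Gstm1. Several of these are NRF2 targets too. Pericentral genes, expressed around the central vein as many P450 genes are, had 1 of 12 lower, Lgr5, and 6 of 12 lower without the 4 arrays, and periportal genes 0 of 11 called by limma, or 1 higher without the 4 arrays. Acute phase genes had 2 of 20 higher, Lcn2 and Orm3, and 1 lower, Saa3. The AHR-responsive members had 1 of 3 higher, and the CAR- and PXR-responsive members 2 of 10 higher and 1 lower, at medians of 0.44 and 0.07 against -0.03 over all genes. Counts in this paragraph are from all arrays unless the other fit is named. Without the 4 arrays the CAR-responsive Cyp2b10 was called higher too, so the last count depends on the arrays used.

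In livers without the 4 arrays, electron supply and haem genes had 1, 3 and 5 of 15 higher after loss of NEMO, KEAP1 or both, and 0 lower. Of 11 male-predominant genes outside the P450 families 1 was called in double knockout hepatocytes. The male-predominant transporter gene Slco1a1 was at 6.88, 10.54 and 10.74 in controls and at 5.73, 4.17 and 3.63 without both genes. Slco1a1 fell by 4.88 ± 0.79 (adjusted p = 0.00131 in limma), and Hsd3b5 was lower as well without the 4 arrays. Of 5 female-predominant genes outside these families 0 were called there by limma, or 1 lower without the 4 arrays, and of the 4 measured members of that kind, 0 in either fit.

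Genes called without the 4 arrays alone made up the rest. Cyp2c70, which makes muricholic acids from bile acids, was at 11.73, 11.64 and 11.52 in control livers and 11.43, 11.13 and 11.07 without KEAP1, with no overlap. Its change was -0.47 ± 0.12 (adjusted p = 0.0451 in limma), and -0.42 ± 0.13 (adjusted p = 0.617) with all arrays. Cyp2j9 was at 6.61, 7.50 and 7.27 in control hepatocytes and 6.28, 6.65 and 6.74 in double knockouts, a change of -0.92 ± 0.24 (adjusted p = 0.0279), and -0.57 ± 0.24 (adjusted p = 0.17) with all arrays. Cyp3a44 was at 6.26 and 6.18 on the remaining control hepatocyte arrays and at 6.79, 6.91 and 6.85 without NEMO, a rise of 0.63 ± 0.13 (adjusted p = 0.0129) that was 0.0029 with all arrays. Cyp2a12, a steroid hydroxylase, changed by -0.30 ± 0.07 (adjusted p = 0.0339) from the NEMO to the double knockout hepatocytes, and by -0.18 ± 0.10 (adjusted p = 0.396) with all arrays. It lay between 11.3 and 12.02 throughout. Cyp2c65 and Cyp2d12 were below 4 throughout.

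Between control hepatocytes and control liver the P450 genes called were near or below the share over all genes. Such small counts show nothing particular to P450 genes. Over the 54 genes the median difference, hepatocytes minus liver, was 0.06 with all arrays and -0.04 without the 4, against 0.02 and 0.0037 over all genes. With all arrays 0 were higher and 2 lower in hepatocytes (1.29% and 3.84% of all genes), namely Cyp1a2 at -0.40 ± 0.11 (adjusted p = 0.0424 in limma) and Cyp2c55 at -1.18 ± 0.26 (adjusted p = 0.00643). Cyp1a2 was lost without hepatocyte control 1 or 2 or liver control 1 or 3, and Cyp2c55 without liver control 3 (adjusted p = 0.0517). Without the 4 arrays 0 were called by limma (3.06% of all genes, with 7 of the 54 and 2734 of all genes at an unadjusted p under 0.05). At the same time 7 of 7 endothelial and 9 of 9 macrophage markers were lower in control hepatocytes than in control liver, or 7 and 5 without the 4 arrays, and their part in these values was not tested.

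The response to a knockout was not shown to differ between liver and hepatocytes for any of the 54 genes. In limma 0 were called for NEMO loss, KEAP1 loss or the double knockout (0.0691%, 0.0% and 0.0691% of all genes). At an unadjusted limma p under 0.05 were 1, 2 and 3 of the 54, beside 1781, 1069 and 1428 of all genes. Without the 4 arrays 0 were called as well (0.0638%, 0.0106% and 0.00531%). There 9, 3 and 4 of the 54 had an unadjusted limma p under 0.05, beside 2322, 1716 and 1500 of all genes. The change of Cyp2u1 with KEAP1 loss, for example, was higher by 0.82 ± 0.58 in hepatocytes than in liver (adjusted p = 0.902 in limma with all arrays). That value includes hepatocyte control 1, an array in doubt, which had Cyp2u1 at 6.16 against 8.15 and 7.52 on the other control hepatocytes.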

How the data were processed

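Gene expression was measured on 24 1-colour Affymetrix arrays, 12 of liver and 12 of primary hepatocytes, in 8 groups of 3. The authors deposited 1 log2 value per probe set and array. RMA is the tool in the submitters' processing notes, with its options not stated. Values ran from 0.51 to 13.62, with array medians of 4.04 to 4.23 over all probe sets and 4.40 to 4.97 over the genes used. Scan dates were not analysed here, and 3 arrays per group limit the precision. Of 35556 probe sets 21218 had 1 symbol in the platform annotation, 1881 several and 12457 were unlisted. Symbols were checked against RefSeq (GRCm38.p6; 0 changed, 33 unmatched). The brightest probe set stood for each of 18820 genes, and 1386 had several. P450 probe sets with several symbols (5) were not used as members.

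The test was limma 3.58.1 under R 4.3.3 with a mean-variance trend, two-sided and adjusted over 18820 genes within each of 14 comparisons. Comparisons within a tissue used its 12 arrays and the others all 24. It was checked on simulated data. Alternatives were leaving out the 4 arrays in doubt, each array in turn, a replicate block, a filter (above 5 on 3 arrays), the mean of probe sets, aligned medians and a fit on the 2 groups. Residuals of same-numbered arrays correlated above 0.1 in every pair only for the liver double knockout against control (r = 0.115, 0.136 and 0.23), so the block stands beside that comparison. Members called in either fit were named. The members, lists, named-gene rule and arrays in doubt were chosen with earlier results of these data known.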

Additional observations from a re-analysis of the deposited data

Results flagged for a closer look

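Several P450 genes had changes of opposite sign in 2 settings, with no overlap between the groups in either. The differences of Cyp2c55, Cyp2b23 and Cyp2j11 were not tested, and those of Cyp2d12, Cyp2d26 and Cyp2r1 between tissues were not called by limma. In hepatocytes the change of Cyp2c55 with KEAP1 loss reversed with NEMO status: it was up against control and down against the NEMO knockout. The change where NEMO was lost minus that where it was intact was -1.40 on the log2 scale with all arrays. It was -1.26 without the 4 arrays in doubt. For Cyp2b23, which was below 4 on every array, the same difference was 0.67 and 0.44. Between tissues, without the 4 arrays, the double knockout change in hepatocytes minus that in liver was 0.91 for Cyp2d12 and 0.22 for Cyp2d26. The KEAP1 change of Cyp2d26 differed by 0.19, the double against NEMO knockout change of Cyp2j11 by -0.36 and the NEMO change of Cyp2r1 by -0.19. Cyp2d12 and Cyp2j11 were below 4 on every array.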

How the results depend on the processing

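Counts of called P450 genes are given for each alternative that moved them past 1.5 times or across 0. Without the 4 arrays in doubt the liver counts were 12 for NEMO loss (1 with all arrays), 7 for KEAP1 loss (0), 10 for the double knockout (0) and 7 for the double against the NEMO knockout (3). The hepatocyte counts were 4 for KEAP1 loss (2), 13 for the double against the NEMO knockout (8) and 5 for the double against the KEAP1 knockout (3), and control hepatocytes against control liver had 0 (2). The shares of all genes called in that fit are given in the Results. The replicate block gave 5 for NEMO loss in liver, 5 for the double knockout in liver, 5 for the double against the NEMO knockout in liver, 2 for NEMO loss in hepatocytes (3) and 5 for control hepatocytes against liver. Of all 18820 genes the block called 837, 799, 319, 1298 and 1782 in the same order. Aligned medians gave 1 for the double against the NEMO knockout in liver, 12 and 16 for NEMO loss and the double knockout in hepatocytes, and 1 for control hepatocytes against liver. The matching counts over all genes were 186, 3096, 4161 and 2002. A fit on the 2 groups alone gave 0 for NEMO loss in liver, 1 for the double against the NEMO knockout in liver, and in hepatocytes 2, 1 and 1 for NEMO loss, KEAP1 loss and the double against the KEAP1 knockout. Such fits called 26 and 333 of all genes in liver, and 861, 155 and 486 in hepatocytes.

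Leaving out 1 array gave 0 to 5, 0 to 2 and 0 to 9 calls for NEMO loss, KEAP1 loss and the double knockout in liver, 0 to 2 for the double against the NEMO knockout and 0 to 0 against the KEAP1 knockout. Over all genes these ranges were 23 to 1409, 0 to 497, 0 to 2207, 16 to 175 and 0 to 2. In hepatocytes the P450 ranges were 1 to 4, 0 to 4, 8 to 12, 5 to 11 and 1 to 4 in the same order, 1 to 2 between control hepatocytes and liver, and 0 to 0 for the 3 differences between tissues. Over all genes the hepatocyte ranges were 807 to 1196, 123 to 405, 1042 to 1946, 293 to 530 and 157 to 571. Control hepatocytes against liver had 638 to 964. Of 78 gene results followed, 6 settings reversed a sign. With NEMO loss in hepatocytes Cyp2a22 (-0.53) became 1.31 without the 4 arrays, and without 1 array ran from -1.74 to 1.31, positive without hepatocyte control 1. Cyp3a44 (0.0029) became -0.17 with medians aligned, and without 1 array ran from -0.33 to 0.63, negative without control 2 or 3 or NEMO knockout 2. The cause was not tested. Signal over background limits the 12 genes below 4 on every array.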
